A study of Mus musculus with 20 samples.

Results

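The microRNAs (miRNAs) miR-375, miR-672, miR-204 and miR-532 were followed in small RNA of cauda epididymosomes, the extracellular vesicles of the tail of the epididymis, from male mice. They were chosen by name, either arm of the hairpin, because earlier work on paternal or early-life stress had named them in sperm. The 4 miRNAs gave 8 mature arms among 948 mature miRNAs and 72034 RNAs in the count table labelled as size-selected, called the “with” table here. The table labelled as not size-selected, the “without” table, listed 6 of the arms, all but miR-375-5p and miR-672-3p, among 875 mature miRNAs and 59035 RNAs.

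The animals were males of 9 months in 2 groups of 5. The Control group held animals 3, 5, 7, 9 and 11, from litters that were left untouched. The MSUS group (maternal separation with unpredictable stress of the dam) held animals 2, 4, 6, 8 and 14, whose litters were taken from the dam for 3 h a day at unpredictable times over the first 2 weeks of life, while the dams themselves received forced swim or restraint, also unpredictably. Strain and litter of origin were not given, so whether males shared a litter is unknown and the p-values below rest on the spread between them. Epididymosomes were pelleted by ultracentrifugation after sperm had been removed by swim-up, and each of the 10 libraries was sequenced in 2 runs, with and without a size selection meant to enrich miRNAs, which made 20 samples. The design asks whether early stress leaves a trace in the RNA that these vesicles carry in adult males.

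A miRNA is cut from a hairpin precursor, usually with 1 arm kept, and then guides Argonaute proteins to messenger RNAs that pair with its seed. Epididymal epithelial cells release vesicles into the duct, and sperm take up RNA from them as they mature, which makes these vesicles a studied route by which a father's experience could reach sperm RNA. miR-375 is best known from pancreatic islets and other endocrine and epithelial cells, miR-204 from the pigmented and secretory epithelia of the eye and brain, and miR-532 from a cluster of miRNAs on the X chromosome.

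The mature sequences were read from RefSeq (GRCm38.p6), in which 6 of the 8 arms were matched by name, all but miR-375-3p and miR-532-5p. They are shown 5′ to 3′ with the seed, bases 2 to 8, in capitals, because the seed decides which messages a miRNA can pair with and because close relatives differ outside it. miR-211-5p is shown as the relative of miR-204-5p.
miR-672-5p: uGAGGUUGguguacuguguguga
miR-672-3p: aCACACAGucacuaucuucga
miR-204-5p: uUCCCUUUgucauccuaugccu
miR-211-5p: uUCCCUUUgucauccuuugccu
miR-204-3p: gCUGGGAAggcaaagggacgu
miR-375-5p: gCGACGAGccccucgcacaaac
miR-532-3p: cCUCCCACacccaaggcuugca

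None of the printed seeds was shared between the 4 miRNAs. miR-204-5p and miR-211-5p held the same seed and differed by A17U, with positions counted from the 5′ end of miR-204-5p. miR-7670-3p also carried the seed of miR-204-5p, and its counts summed to 3 in the “with” table. The seed of miR-672-5p recurred in miR-377-5p, which had 1 count in each table. Reads on the miR-204-5p seed were therefore nearly all assigned to miR-204-5p: miR-211-5p received 10.5 counts against 637.5 in the “with” table, or 1.62% of both, and 1.5 against 428.5, or 0.349%, in the other table. Fractional counts stood in both miRNAs in the same 3 libraries of the first table and in the same 1 library of the second, and the assignment of those reads is uncertain.

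The 4 genes lie apart in the genome, as the GENCODE vM21 annotation of GRCm38 gives them. Mir375 (chr1:74900658-74900721, minus strand) is intergenic, between Cryba2 at 7515 bp and Cfap65 at 1350 bp. Mir672 (chrX:104116175-104116274, minus strand) lies in an intron of Nexmif on the same strand. Mir204 (chr19:22750605-22750672, plus strand) lies in an intron of Trpm3, which encodes a cation channel, also on the same strand. Mir532 (chrX:7248402-7248497, minus strand) lies in an intron of Clcn5, which encodes a chloride transporter, with Mir188 at 413 bp, Mir362 at 6420 bp, Mir501 at 7159 bp and Mir500 at 10719 bp in the same gene.

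Totals per library ran from 1872084 to 3647956 estimated counts in the “with” table and from 215231 to 871461 in the “without” table. Counts on mature miRNAs ran from 234151 to 550403 and from 132141 to 575388, so the depth on miRNAs was of the same order in both. The miRNA share of all counts was 10.9 to 17.0% in the “with” table and 52.4 to 72.2% in the other. These contents go against the labels, and any direction between the tables refers to the labels. Control 9, Control 11 and MSUS 14 stood apart, with the most miRNA counts in the “with” table and 14.5, 25.3 and 23.8% of its counts on tRNA against 34.6 to 66.0% in the other libraries. Markers of epididymal epithelium were listed for 15 of 16 transcripts in the “with” table, and 11 reached 10 counts over all its libraries. Only 12 were listed and 7 reached 10 counts in the other. The markers took 0.211 to 0.489% of counts in Control and 0.0780 to 0.324% in MSUS animals of the “with” table. Most of these were Crisp1 counts (59913 over all libraries, against 5656 for Adam7, the next). The 8 sperm and spermatid transcripts were all listed too, at 0.0235 to 0.0415% and 0.0189 to 0.0440%, and their part in the results was not tested. Since vesicles are a bulk sample, fewer vesicles of a kind and less of a miRNA per vesicle cannot be told apart.

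Together the 4 miRNAs made up a small part of the vesicle miRNAs. They took 0.0915 to 0.185% of miRNA counts in Control and 0.117 to 0.164% in MSUS animals of the “with” table. In the other table the shares were 0.0831 to 0.154% and 0.0836 to 0.144%. Levels are given below as CPM, which are counts scaled to 1e6 counts on mature miRNAs after TMM normalization, and all mature miRNAs are near the same length. miR-375-3p ranked 92 of 948 by mean CPM in the “with” table and 93 of 875 in the other. miR-532-5p ranked 113 and 114, miR-204-5p 156 and 162, and miR-672-5p 158 and 186. The order of the first 3 was held inside single libraries: miR-375-3p lay above miR-532-5p in 10 and 9 of 10 libraries of the tables, and miR-532-5p above miR-204-5p in 10 and 10. miR-204-5p and miR-672-5p had no fixed order, as miR-204-5p was the higher in 5 and 7 of 10 libraries and the means were in a ratio of 1.06 and 1.42.

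**Figure D1:**
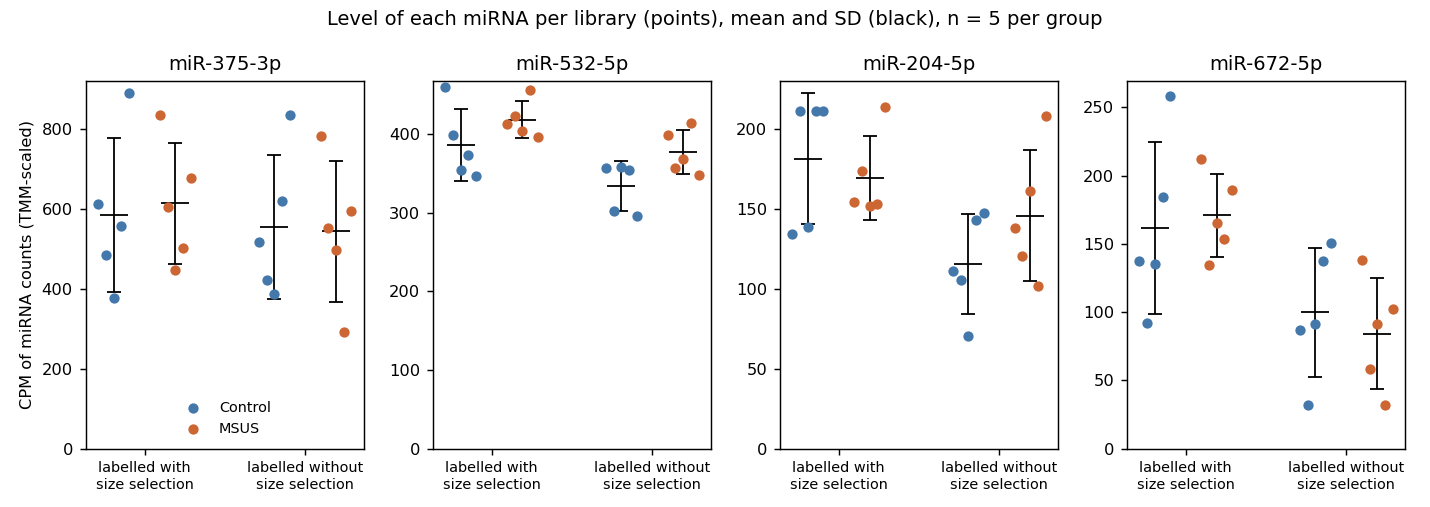
Level of the 4 abundant arms in every library, in CPM of miRNA counts on a linear axis from 0, with 1 point per library, Control in blue, MSUS in orange, and the mean and SD of each group in black (n = 5). In every panel the points of both groups overlap in both tables, and miR-532-5p has the narrowest spread relative to its mean.

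Each of the 4 hairpins had 1 dominant arm. The 3p arm of miR-375 held 2217 of its counts in the “with” table, against 1 count of miR-375-5p, found in Control 3. The reverse held for miR-672, with 618 counts on the 5p arm and 1 on miR-672-3p, again in Control 3. miR-204-3p had 4 counts in the “with” table, 1 each in Control 7, Control 11, MSUS 8 and MSUS 14. It had 8 counts in the other table, 3 in Control 7, 2 in Control 9, 1 in Control 11 and 2 in MSUS 14. The minor arm was seen most often for miR-532, where miR-532-3p made up 4.54% of both arms in one table and 5.44% in the other. A count of 0 allowed a level of up to 5.45 to 12.8 CPM, depending on the library, in the “with” table and 5.21 to 22.7 CPM in the other. These limits are 3 counts over the miRNA total without TMM scaling, for counting error only. Levels of the 3 rarest arms could thus not be resolved.

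miR-375-3p, the most abundant of the 8 arms, had group means that lay closer together than the spread between animals. In the “with” table it stood at 612, 485, 376, 557 and 889 CPM in Control 3, 5, 7, 9 and 11. The MSUS libraries 2, 4, 6, 8 and 14 gave 834, 604, 447, 503 and 677 CPM. The extremes were both Control animals, 7 and 11, and the MSUS values fell between them. In the “without” table the Control values were 516, 421, 386, 619 and 833 CPM and the MSUS values 782, 551, 496, 293 and 594 CPM. MSUS 8 was lowest here, Control 11 was again highest and MSUS 2 again highest of its group. Means were 584 ± 192 CPM in Control and 613 ± 152 CPM in MSUS (SD, n = 5 each), a log2 fold change of 0.07 with a standard error (SE) of 0.21 (edgeR quasi-likelihood test, adjusted p = 0.980). The other table gave 555 ± 180 and 543 ± 176 CPM, with a log2 fold change of −0.06 (SE 0.23, edgeR adjusted p = 0.960).

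miR-532-5p was the steadiest of the 4 and the one whose MSUS mean was the higher in both tables, though by less than the test could call. Its Control libraries, in the order above, were at 459, 399, 354, 373 and 346 CPM in the “with” table, and its MSUS libraries at 413, 422, 404, 456 and 396 CPM. The groups overlapped through Control 3, the highest library, and Control 5. In the other table Control libraries were at 357, 302, 358, 354 and 295 CPM and MSUS libraries at 398, 357, 368, 414 and 348 CPM. There 3 Control libraries reached into the MSUS range. Means of 386 ± 45.5 and 418 ± 23.4 CPM gave a log2 fold change of 0.12 (SE 0.16, edgeR adjusted p = 0.980, n = 5 each). Means of 333 ± 31.7 and 377 ± 28.1 CPM in the other table gave 0.17 (SE 0.16, edgeR adjusted p = 0.863, n = 5 each). All 5 MSUS libraries lay above the Control mean in both tables. The same held for 9 of 259 tested miRNAs (3.47%) in the “with” table and 14 of 233 (6.01%) in the other. Both tables hold the same 10 libraries, so the second is no independent repeat of the first.

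miR-204-5p had group differences of opposite sign in the tables. Control libraries were at 134, 210.9, 139, 211.5 and 211.3 CPM in the “with” table, and MSUS libraries at 154, 174, 152, 153 and 214 CPM. The Control values thus fell into a pair near the bottom and 3 near the top, and MSUS 14 was highest of all. In the other table Control libraries were at 111, 105, 70.2, 143 and 148 CPM and MSUS libraries at 138, 120, 161, 102 and 208 CPM. Control 7 was lowest there, on 10 counts, and MSUS 14 again highest. Means were 181 ± 41.0 and 169 ± 26.4 CPM in the first table (log2 −0.09, SE 0.20, edgeR adjusted p = 0.980, n = 5 each). They were 115 ± 31.4 and 146 ± 41.0 CPM in the second (log2 0.33, SE 0.25, edgeR adjusted p = 0.863, n = 5 each). Of the MSUS libraries, 1 and 4 of 5 lay above the Control mean.

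miR-672-5p was the least abundant of the dominant arms and the most variable. Control libraries were at 137, 92.3, 135, 184 and 258 CPM in the “with” table, and MSUS libraries at 212, 134, 165, 153 and 189 CPM. Control 5 and Control 11 were lowest and highest, with the MSUS values between. In the other table Control libraries were at 87.2, 32.1, 91.3, 137 and 151 CPM and MSUS libraries at 138, 58.0, 91.2, 31.8 and 103 CPM. The low values of Control 5 and MSUS 8 there rest on 7 and 5 counts. Means were 161 ± 63.0 and 171 ± 30.6 CPM in the first table (log2 0.06, SE 0.23, edgeR adjusted p = 0.980, n = 5 each). They were 99.8 ± 47.0 and 84.3 ± 40.9 CPM in the second (log2 −0.30, SE 0.37, edgeR adjusted p = 0.923, n = 5 each).

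Of the 8 arms, 4 passed the filter on low counts in each table, the dominant arm of every miRNA. None of these 4 passed the threshold of 0.05 on the adjusted p in either table, and none had groups without overlap. Over all miRNAs the background was 0 of 259 called (0%) in the “with” table and 0 of 233 (0%) in the other, with 7 (2.7%) and 13 (5.58%) at an unadjusted p under 0.05 and 0 called by DESeq2 or limma voom. All values of 1 group lay beyond the other for 1 of 259 (0.386%) and 0 of 233 (0%). The smallest unadjusted p of a member was 0.207, for miR-204-5p in the “without” table, at place 46 of 233. How large a change the data leave room for is given by the 95% intervals of the fold change of MSUS over Control, from the same edgeR fit. For miR-375-3p they ran from 0.775 to 1.42 in the “with” table and from 0.684 to 1.35 in the other. Those of miR-532-5p were the narrowest, 0.864 to 1.36 and 0.898 to 1.42. For miR-204-5p they were 0.7101 to 1.24 and 0.873 to 1.81. Those of miR-672-5p were 0.753 to 1.45 and 0.477 to 1.38, the widest, and a fall to 0.5 of the Control level lies within the latter.

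The scaling sets the zero of these comparisons. With libraries scaled over all annotated RNAs in place of miRNAs, the median over all tested miRNAs (log2 fold change) rose from 0.03 to 0.52 in the “with” table and from 0.00 to 0.29 in the other. Relative to those medians miR-375-3p stood at −0.01 and −0.07, miR-672-5p at 0.06 and −0.28, miR-204-5p at −0.12 and 0.33, and miR-532-5p at 0.10 and 0.19, close to their values above. None of the 4 was called with this scaling either, and 1 of 233 miRNAs was, miR-881-3p in the “without” table (log2 0.87, edgeR adjusted p = 0.0463).

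Control 9, Control 11 and MSUS 14 stood apart in the “with” table. In the other, their tRNA shares (12.2, 12.6 and 8.65%) lay within the 6.20 to 25.3% of the rest. They again had the most miRNA counts there (359208, 575388 and 505537). Without these libraries, which left fewer animals in each group, 0 of the 4 arms were called in either table. The log2 fold change of miR-375-3p was then 0.28 and 0.28, that of miR-672-5p 0.45 and 0.20, that of miR-204-5p −0.035 and 0.45, and that of miR-532-5p 0.06 and 0.20 in the “with” and “without” tables. The sign of miR-375-3p and miR-672-5p in the “without” table thus turned with these libraries.

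**Figure D2:**
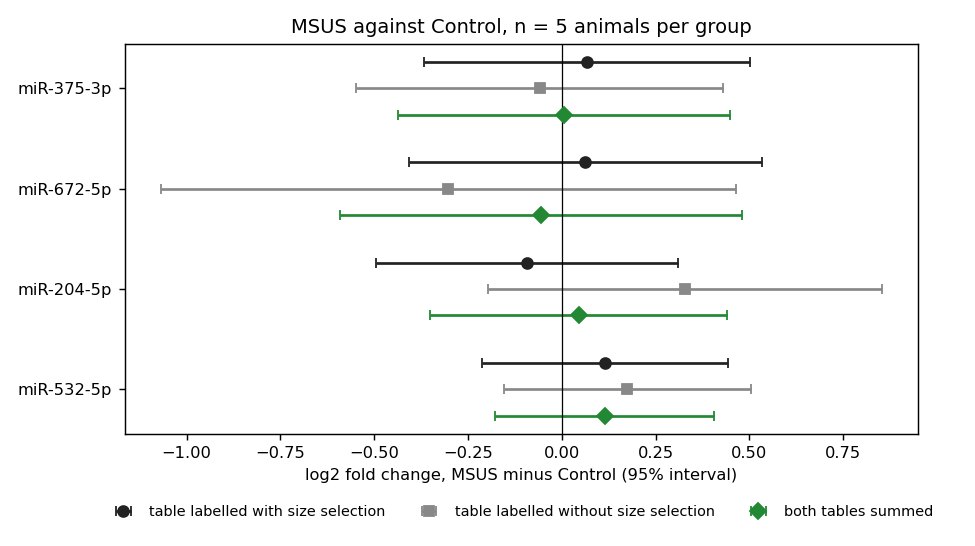
Log2 fold change of MSUS over Control for the 4 tested arms, with 95% intervals, in the “with” table (black circles), the “without” table (grey squares) and both tables summed per animal (green diamonds), n = 5 animals per group. Every interval spans 0, and miR-532-5p is the only one of the 4 with all 3 points to the right of 0 by more than 0.1.

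**Figure D3:**
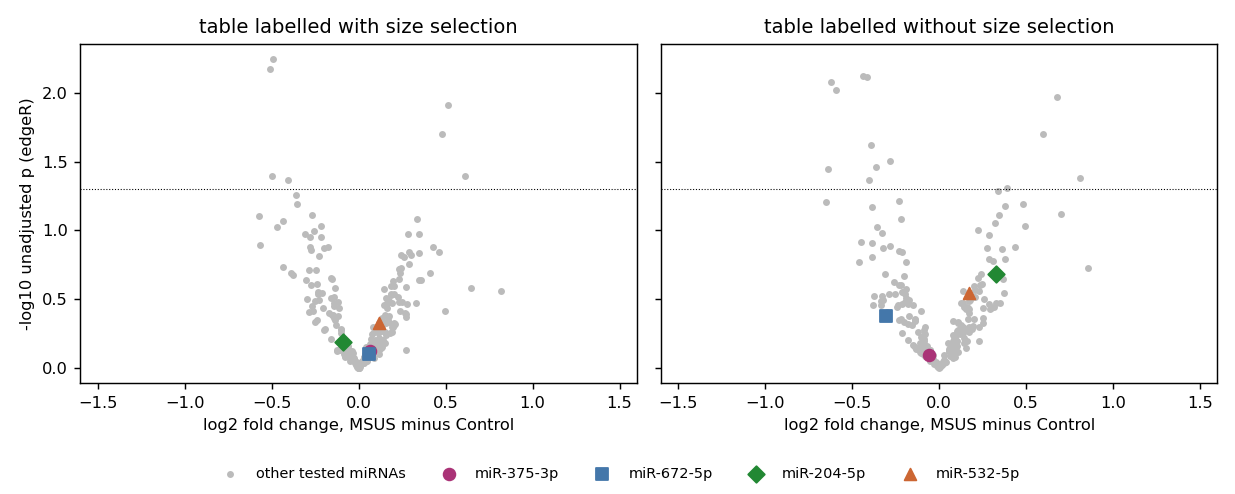
Place of the 4 arms among all tested miRNAs, with the log2 fold change of MSUS over Control on the x axis and −log10 of the unadjusted edgeR p-value on the y axis, with the threshold of 0.05 as a dotted line. The 4 coloured symbols lie below the line in both tables, amid the grey points of 259 and 233 tested miRNAs.

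Summing both sequencing runs of each animal gave 1 deeper value per animal and let miR-532-3p pass the filter on low counts. The log2 fold change was 0.01 (SE 0.21) for miR-375-3p, −0.06 (SE 0.26) for miR-672-5p and 0.04 (SE 0.19) for miR-204-5p. It was 0.11 (SE 0.14, interval −0.18 to 0.41) for miR-532-5p and −0.01 (SE 0.29) for miR-532-3p. The edgeR adjusted p lay between 0.948 and 0.993 for all 5, against 0 of 304 miRNAs called (0%) and 7 (2.3%) at an unadjusted p under 0.05. For miR-204-5p and miR-672-5p, whose signs were opposite in the tables, the summed value lay between those of the tables. The sums hold the same counts, so they are no separate evidence. The tables' MSUS effects on miR-204-5p differed by −0.48 (SE 0.31, unadjusted p = 0.133), and the adjusted p of this interaction was 0.999 for each of the 4 arms in edgeR, with 0 of 279 miRNAs called and 0 at an unadjusted p under 0.05 (0% each). With the animal as a block, miR-204-5p gave −0.42 (SE 0.21, unadjusted p = 0.0443, edgeR adjusted p = 0.953), and 1 of 300 miRNAs (0.333%), let-7c-5p, was called. Fitted to the 279 miRNAs tested without the block, it called 0 (0%).

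The share of each miRNA in all miRNA counts, both arms summed, does not depend on TMM scaling or on a filter. miR-375 took 0.0596 ± 0.0231% of miRNA counts in Control and 0.0615 ± 0.0165% in MSUS animals of the “with” table (SD, n = 5, exact permutation p = 0.786). miR-532 took 0.0408 ± 0.0067% and 0.0435 ± 0.0019% there (exact permutation p = 0.381, n = 5 each). In the “without” table miR-532 took 0.0354 ± 0.0041% and 0.0391 ± 0.0023%, with the smallest p of the 8 tests (exact permutation p = 0.0952, adjusted p = 0.762, n = 5 each). The other 7 tests had an adjusted p of 0.833, and the smallest p that 5 animals against 5 can give is 0.00794. No share passed the test. After adjustment over the 8 tests, a share alone at that smallest p would still not pass the threshold. That no share passed therefore cannot decide whether the share of any one miRNA differed.

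The arms of miR-532 were compared with both runs summed, since miR-532-3p averaged 6.6 and 5.9 counts in the tables, too few for a ratio in each. This sum was chosen after these counts had been seen. The 3p arm made up 3.06 to 6.34% of miR-532 counts over the 10 animals, from 6 counts beside 190 on the 5p arm in MSUS 2 (95% Clopper-Pearson interval 1.13 to 6.54%) to 26 beside 384 on the 5p arm in Control 11 (4.18 to 9.15%), and these intervals overlap. The log2 ratio of the 5p to the 3p arm was 4.30 ± 0.46 in Control and 4.35 ± 0.38 in MSUS (SD, n = 5, exact permutation p = 0.857). A difference in the choice of arm was not detectable at this depth. miR-532-3p ran from 6.59 CPM in Control 5 to 35.7 CPM in MSUS 8 in the “with” table. In the “without” table it ran from 0 in MSUS 2 to 25.1 CPM in MSUS 14. The count of 0 allows up to 22.7 CPM there, without TMM scaling.

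How repeatable such low counts are was read from the 2 sequencing runs of each animal. miR-375-3p kept the order of the animals best, with Pearson r = 0.816 and Spearman rho = 0.830 between runs (permutation, adjusted p = 0.0153 and 0.0136 over 5 arms, n = 10 animals). Without the farthest 2 animals, Control 7 and Control 11, r was 0.724 (exact p = 0.0314, n = 8), and without the 3 libraries that stood apart it was 0.749. miR-672-5p gave r = 0.780 and rho = 0.818 (permutation, adjusted p = 0.0153 and 0.0136), but r = 0.566 without Control 5 and Control 11 (exact p = 0.124, n = 8), so that the call of r for miR-672-5p rests on these animals. Without the 3 libraries that stood apart r was 0.683. For miR-204-5p r was 0.536 and rho 0.564 (permutation, adjusted p = 0.139 and 0.124), with r = 0.329 without MSUS 14 and Control 9 (exact p = 0.426, n = 8) and 0.146 without the 3 libraries. miR-532-5p gave r = 0.577 and rho = 0.576 (permutation, adjusted p = 0.131 and 0.124), with r = 0.469 without Control 11 and Control 3 (exact p = 0.228, n = 8) and 0.356 without the 3 libraries. The relation between runs thus passed the test for miR-375-3p and miR-672-5p, and for miR-375-3p also without the farthest 2 animals. miR-532-3p gave r = −0.0846 and rho = −0.224 (permutation, adjusted p = 0.874 and 0.541).

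The spread of an arm over animals was set beside what counting alone gives. miR-375-3p had a coefficient of variation (CV) of 27.5% over the 10 libraries of the “with” table, where counting error gives 7.03%. In the other table its CV was 30.6% against 8.64%. Differences between animals and between library preparations add to counting error in any such CV. miR-532-5p had a CV of 9.47% against 8.83% from counting in one table and 10.3% against 11.2% in the other. miR-204-5p had CVs of 18.9 and 29.1% (13.1 and 17.3% from counting) and miR-672-5p of 28.3 and 46.0% (13.4 and 21.0% from counting).

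**Figure D4:**
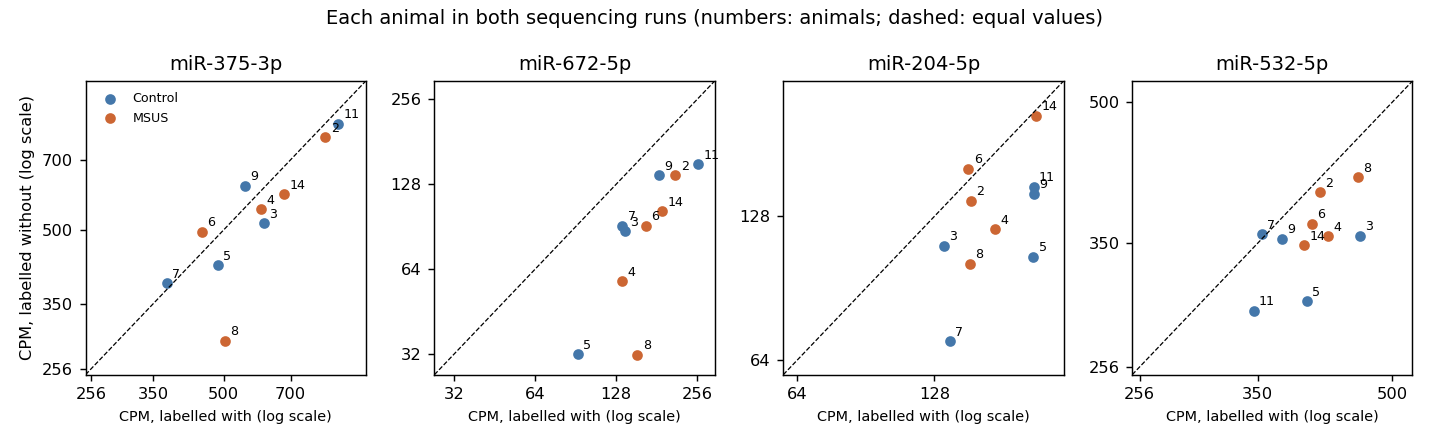
Each animal in both sequencing runs, CPM in the “with” table on the x axis and in the “without” table on the y axis, both on a log scale, with the animal's number beside its point and equal values on the dashed line. miR-375-3p follows the line apart from animal 8, while all 10 points of miR-672-5p lie below it.

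The level of the arms themselves was then compared between the tables, over the same 10 animals and on a scaling common to both. miR-672-5p averaged 165 ± 48.7 CPM in the “with” table and 93.2 ± 43.4 CPM in the other (SD, n = 10 animals). It was higher in the “with” table in 10 of 10 animals, by a log2 difference of 0.79 (SE 0.23, edgeR adjusted p = 0.0162). With the animal as a block, which keeps the pairing of the tables, the difference was 0.79 (SE 0.11, edgeR adjusted p = 1.8e-10). The ratio within an animal ran from 1.25 in Control 9 to 4.72 in MSUS 8. miR-672-5p was the only one of the 4 arms called in the fit without the block. There 56 of 268 miRNAs (20.9%) were called, 39 (14.6% of those tested) in the same direction. miR-204-5p averaged 174 ± 34.97 and 132 ± 38.0 CPM, higher in 9 of 10 animals, with a log2 difference of 0.36 (SE 0.16, edgeR adjusted p = 0.0928). With the animal as a block this became 0.37 (SE 0.10, edgeR adjusted p = 0.0011) and was called, as were 148 of 300 miRNAs (49.3%) in that fit. The block also let more miRNAs pass the filter on low counts, and fitted to the 268 miRNAs tested without it, it called 146 (54.5%), miR-204-5p and miR-532-5p among them. miR-532-5p (398 ± 32.6 and 359 ± 38.9 CPM, log2 0.15, SE 0.09) and miR-375-3p (593 ± 167 and 556 ± 171 CPM, log2 0.09, SE 0.17) were not called without the block, with edgeR adjusted p of 0.232 and 0.769. The difference of miR-672-5p between tables, 0.79, thus stands beside MSUS log2 fold changes of 0.06 and −0.30 within them.

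The miRNAs most alike in pattern over the 10 animals are given as a description, by the mean of the Pearson r of log2 CPM in both tables, out of 230 miRNAs tested in both. All such values share the libraries and their depth. miR-375-3p was most like miR-25-3p (r = 0.86 and 0.89) and miR-34b-3p (0.86 and 0.87), with miR-672-5p at the fifth place (0.69 and 0.81). For miR-672-5p the closest were miR-375-3p and miR-221-3p (0.81 and 0.62), so that these 2 members varied alike over the animals. miR-204-5p was most like miR-486a-5p, listed as 1 entry with miR-486b-5p (0.64 and 0.88), and miR-328-3p (0.71 and 0.77). miR-532-5p was most like miR-30e-3p (0.72 and 0.64) and miR-878-5p (0.63 and 0.54), and its mean r with the other 3 members was negative, between −0.18 and −0.28.

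miR-532 was read beside its neighbours in the cluster within Clcn5, against a background of 0 of 259 and 0 of 233 tested miRNAs called (0% each). Of 12 named arms of the cluster, 9 were listed and 4 tested in the “with” table, 2 with a positive and 2 with a negative log2 fold change, and 0 were called. Their median was 0.03, as was the median of all tested miRNAs. These counts include miR-532-5p, and without it 1 neighbour was positive and 2 were negative, with a median of −0.06. miR-501-3p, the most abundant of the neighbours, had means of 335 ± 74.7 CPM (Control) and 320 ± 67.4 CPM (MSUS, log2 −0.06, SE 0.19, edgeR adjusted p = 0.980, n = 5 each) and was singled out for its level. miR-362-3p had the smallest p of the cluster there (72.7 ± 21.1 and 85.4 ± 21.3 CPM, log2 0.25, SE 0.25, edgeR adjusted p = 0.980, n = 5 each). In the “without” table, 10 were listed and 3 tested, 1 positive and 2 negative with a median of 0.00, and miR-532-5p itself had the smallest p. Both tested neighbours were negative there, with a median of −0.04. Clcn5 transcripts were present at 1464.5 counts over the 10 libraries of the “with” table and 198.5 in the other. The host of miR-204, Trpm3, had 26 and 8 counts, and Nexmif, the host of miR-672, was not among the listed RNAs.

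The lists that named these miRNAs in sperm had 0 called members in the vesicles. Over all tested miRNAs 0 of 259 and 0 of 233 were called (0% each), so this is no trait of the lists. Those lists hold members described above, and counts over them are no separate evidence. Of the sperm miRNAs of a paternal stress study (miR-29c, miR-30a, miR-30c, miR-32, miR-193a, miR-204, miR-375, miR-532 and miR-698, with miR-532 listed as its 3p arm), 6 arms were tested in each table, 4 positive and 2 negative in both, and 0 called. miR-532-3p was too rare to be among the tested arms, and miR-532-5p does not belong to the list. Their median log2 fold change was 0.06 against 0.03 for all tested miRNAs in the “with” table, and 0.17 against 0.00 in the other, where miR-204-5p itself had the smallest p. miR-30a-5p, of the miR-30 family, had the smallest p in the first table, with means of 11488 ± 2250 CPM (Control) and 12078 ± 1861 CPM (MSUS, log2 0.07, SE 0.14, edgeR adjusted p = 0.980, n = 5 each). Of the miRNAs named in sperm of MSUS males (miR-375, miR-200b, miR-672 and miR-466c), 3 arms were tested in each table. In the “with” table, the log2 fold change was positive for 2 and negative for 1, with a median of 0.06, and in the other it was positive for 0 and negative for 3, with a median of −0.11. miR-200b-3p, an epithelial miRNA, had the smallest p in both, at −0.22 (SE 0.12, edgeR adjusted p = 0.980) and −0.11 (SE 0.12, edgeR adjusted p = 0.880).

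Markers of the cells that could supply these miRNAs were read in the same libraries, and their part in the results was not tested. Counts of called marker miRNAs stand beside 0 of 259 and 0 of 233 (0% each) over all tested miRNAs. The 5 epithelial miRNAs (the miR-200 family) summed to 105680 to 121529 CPM in Control and 96521 to 114909 CPM in MSUS animals of the “with” table, with 2 positive and 3 negative, a median of −0.18 and 0 called. miR-200b-3p, given above, had the smallest p of them there. Of the same 5 in the “without” table, 2 were positive and 3 negative, with a median of −0.05 and 0 called, and miR-200c-3p had the smallest p of them (log2 −0.22, SE 0.12, edgeR adjusted p = 0.863). The 4 germ cell miRNAs had positive log2 fold changes in both tables, with medians of 0.37 and 0.16 and 0 called. Of these, miR-34c-5p had the smallest p (log2 0.51 and 0.39, edgeR adjusted p = 0.980 and 0.828). For miR-34b-5p in the “without” table the fitted value was 0.16 (SE 0.42). Its mean there was lower in MSUS (61.1 ± 18.7 CPM) than in Control (64.7 ± 46.3 CPM). The summed level of the 4 ran from 5386 to 8588 CPM in Control and from 6175 to 10717 CPM in MSUS animals of the “with” table. Blood cell miRNAs had 1 positive and 5 negative of 6 (median −0.23), and 1 and 4 of 5 in the other table (median −0.36), with 0 called. miR-150-5p had the smallest p in the first (log2 −0.47, edgeR adjusted p = 0.980) and miR-223-3p in the second (log2 −0.62, edgeR adjusted p = 0.498). Muscle and stroma miRNAs had 3 positive and 2 negative (median 0.08), and 4 and 1 (median 0.09), with miR-143-3p first in both (log2 0.24 and 0.28, edgeR adjusted p = 0.980 and 0.863) and 0 called. Of 5 endocrine transcripts, read because miR-375 marks endocrine cells, none reached 10 counts in either table, and insulin (Ins2) was at 0 in both. Scaled over all annotated RNAs, every tested member of these lists, of the cluster and of the sperm lists had a positive log2 fold change in the “with” table, and in the other all but 3 of 5 blood cell and 1 of 5 muscle and stroma miRNAs did.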

How the data were processed

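The members and lists were chosen with earlier results of these data known. The authors deposited estimated counts for each annotated RNA, 1 table per sequencing run, and used STAR, edgeR and GRCm38, per the submitters' processing notes. The read assignment was not given in the sources used here. Estimated counts were rounded, kept by filterByExpr, scaled by TMM on the sum over mature miRNAs, and tested with edgeR 4.0.16 in R 4.3.3 (robust quasi-likelihood, Benjamini-Hochberg over all tested miRNAs, threshold 0.05). SE and intervals come from the quasi-likelihood F statistic and are approximate. Shares and arm ratios (0.5 added to each arm) were compared by exact two-sided permutation tests with SciPy 1.17.1, and correlations of log2 (CPM + 1) by 100000 permutations. Each table was fitted alone, and both together for the comparison of tables. The labels give the same animal behind a number in both tables: deviations from group means over 231 miRNAs correlated at 0.465 to 0.755 within animals, and 10 of 10 animals matched themselves best. Every arm of the 4 miRNAs is named, and of each list the miRNA with the smallest p. Alternatives were DESeq2 1.42.0, limma 3.58.1 (voom), other scalings, no filter, the animal block (also on the miRNAs tested without it) and left-out libraries. The edgeR steps were tested on simulated data. Planned arm ratios per table were not run, because the minor arms averaged under 10 counts.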

Additional observations from a re-analysis of the deposited data

Results flagged for a closer look

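1 listed value had a wide gap to the rest of its group. miR-532-3p was at 0 CPM in MSUS 2 of the “without” table, where the other 4 MSUS libraries were at 19.1 to 25.1 CPM. A count of 0 in that library, the shallowest of the table, allows a level of up to 22.7 CPM (3 counts without TMM scaling, counting error only). That limit lies above MSUS 8 and MSUS 6 (19.1 and 21.3 CPM) and below MSUS 4 and MSUS 14 (24.9 and 25.1 CPM). These 4 values rest on 3 to 13 counts, so a lower level in MSUS 2 was not resolved at this depth. In the “with” table the same animal had 6 counts (17.9 CPM). 20 groups were examined, and chance flags about 1 in 20 groups.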

How the results depend on the processing

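Of 499 alternative values, 442 kept direction and side of the threshold, 50 changed sign, 4 counts of calls moved and 3 values passed the threshold that had not. No member was called for MSUS under any alternative run (edgeR, DESeq2 or voom adjusted p of 0.302 or more). The exact permutation tests of shares went lower for miR-532, down to an adjusted p of 0.127 in the “with” table and 0.190 in the other. miR-532-5p stayed positive in all 17 alternatives of each table, from 0.06 to 0.62 and from 0.11 to 0.48. Scaling over all annotated RNAs gave 0.40 for miR-204-5p in the “with” table, and 0.22 for miR-375-3p and 0.015 for miR-672-5p in the “without” table, where 1 miRNA was called. Without Control 9, Control 11 and MSUS 14, miR-375-3p and miR-672-5p turned to 0.28 and 0.20 in the “without” table, and miR-672-5p to 0.36 with tables summed. The sums themselves gave −0.056 for miR-672-5p, 0.045 for miR-204-5p and 0.0061 for miR-375-3p. The cause was not tested. With all counts as denominator, log2 share differences became −0.055 for miR-375, −0.0050 for miR-672 and −0.038 for miR-532 in the “with” table, and 0.0057 for miR-375 in the other.

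Leaving out 1 animal at a time, the MSUS log2 fold change spanned −0.077 to 0.27 for miR-375-3p and −0.084 to 0.31 for miR-672-5p in the “with” table, and −0.17 to 0.14 for miR-375-3p in the “without” table. Without a change of sign, miR-204-5p went from −0.21 (without MSUS 14) to −0.015 (without Control 9) in the “with” table and from 0.17 (without MSUS 14) to 0.44 (without Control 11) in the other, where miR-672-5p went from −0.52 (without Control 5) to −0.081 (without Control 11). Summed, it spanned −0.11 to 0.23 for miR-375-3p, −0.21 to 0.18 for miR-672-5p, −0.061 to 0.13 for miR-204-5p and −0.15 to 0.12 for miR-532-3p. Log2 share differences in the “with” table spanned −0.10 to 0.28 for miR-375, −0.056 to 0.35 for miR-672 and −0.21 to 0.0031 for miR-204. In the other table they spanned −0.22 to 0.14 for miR-375 and −0.65 to 0.058 for miR-672. The share difference of miR-532 kept its sign, at 0.033 to 0.19 in the “with” table and 0.095 to 0.19 in the other. The miR-532 arm ratio spanned −0.087 to 0.18, and the interaction of miR-375-3p −0.025 to 0.15.

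With the animal as a block (pairing by animal), 148 of 300 miRNAs differed between tables in place of 56 of 268, miR-204-5p among them (0.37), and 1 of 300 interactions was called in place of 0 of 279. The low-count filter depends on the design and kept more miRNAs with the block. On the miRNAs tested without it, a check chosen after seeing the data, the block called 146 of 268, with miR-204-5p (0.38) and also miR-532-5p (0.16, edgeR adjusted p = 0.0430), and 0 of 279 interactions. The block changed no other call of a member. With 1 animal left out, the 56 became 43 to 60, and miR-672-5p kept an edgeR adjusted p of 0.0325 or less. Counts of 5 to 152 behind miR-672-5p limit its precision.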
